A study of Mus musculus with 721 samples.

Results

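The 10 genes described here are members of the bone morphogenetic protein (BMP) pathway: the ligands Bmp2, Bmp4 and Bmp7, the receptors Bmpr1a and Bmpr2, the signal transducers Smad1 and Smad5, and the target genes Id1, Id2 and Id3. They were chosen by symbol, and all 10 had a line among the 24483 gene lines of the count table. The data were single-cell RNA-seq (scRNA-seq) of 721 hand-picked cells of wild-type C57Bl/6Babr mouse embryos, with no transgene, mutation or treatment in any group. There were 99 cells of 10 embryos at E3.5 and 250 cells of 13 embryos at E6.5, and of all cells 14.6% came from 5 embryos at E4.5 and 37% from 9 embryos at E5.5. Of the E6.5 cells 82 carry E6.75 in their titles. The titles name more embryos than the study states, so an animal may stand under more than 1 name, and every n, SD and p over embryos could then count it more than once. Trophectoderm had been removed by immunosurgery at E3.5 and E4.5. At E5.5 the extra-embryonic ectoderm was cut away and the visceral endoderm (VE) was parted from the epiblast, and at E6.5 the extra-embryonic part was taken off, so the tissue that normally supplies BMP4 to the epiblast after implantation was not sampled.

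BMP ligands are secreted dimers that bind a complex of type I receptors such as BMPR1A and type II receptors such as BMPR2. The receptors phosphorylate SMAD1 and SMAD5, which join SMAD4, enter the nucleus and switch on targets, among which the Id genes are the best known direct ones. Id proteins bind basic helix-loop-helix factors and keep them off DNA. In the early mouse embryo, BMP signalling is known for its part in gastrulation, in the setting of primordial germ cells and in the patterning of VE, and in embryonic stem cells Id genes downstream of BMP are known to hold back differentiation.

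The sequence before an Id gene can be searched for SMAD motifs, although a match does not show that the signal is read there. The 250 bases before the RefSeq start sites of Id3 and Id2 are shown because these were the Id genes with an entry in the RefSeq promoter table (GRCm38.p6). SMAD complexes are known to bind the GC-rich letters GGCGCC and the SMAD box CAGAC, whose other strand reads GTCTG. Both were searched on both strands, no match of one overlapped a match of the other, and capitals mark the matches.
Id3, chr4:136143572-136143821, plus strand: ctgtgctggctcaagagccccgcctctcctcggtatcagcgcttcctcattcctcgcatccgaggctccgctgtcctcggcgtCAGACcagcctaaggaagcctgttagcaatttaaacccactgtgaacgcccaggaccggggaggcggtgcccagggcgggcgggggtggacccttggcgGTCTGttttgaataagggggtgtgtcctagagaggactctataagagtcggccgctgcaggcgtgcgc
Id2, chr12:25096093-25096342, minus strand: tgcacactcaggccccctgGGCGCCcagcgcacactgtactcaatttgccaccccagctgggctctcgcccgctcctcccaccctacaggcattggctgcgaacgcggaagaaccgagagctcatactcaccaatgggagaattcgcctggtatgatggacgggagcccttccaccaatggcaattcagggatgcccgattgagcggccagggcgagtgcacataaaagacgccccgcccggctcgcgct
The Id3 window held 2 CAGAC matches and 0 GGCGCC matches, and the Id2 window held 1 GGCGCC match and 0 CAGAC matches. Of 32851 mouse promoter windows of the same length, 42.19% held CAGAC and 9.59% held GGCGCC, so a match of either kind is common. Both windows lie within the gene's span as GENCODE draws it on GRCm38, since that annotation starts both genes further upstream than RefSeq does. Other RefSeq entries matched Bmp4, Bmpr1a, Bmpr2, Smad1 and Smad5, which makes 7 of the 10 genes.

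Cells were grouped without the 10 genes and without 45 other genes of the BMP pathway, and clusters were named within a stage from fixed markers. The 99 E3.5 cells formed 1 cluster and are called inner cell mass (ICM), from the dissection. At E4.5 there were 27 epiblast-like and 78 primitive endoderm (PrE)-like cells, and at E5.5 8 endoderm-like cells with all others (97%) epiblast-like. The 8 took in all 5 wells that the titles call VE. At E6.5 64.4% of the 250 cells were epiblast-like, beside 32 endoderm-like and 23 primitive streak-like cells, and 34 cells of 8 embryos stayed unnamed. All streak-like cells came from 1 embryo. Levels are CPM, counts scaled to depth, of the summed reads of 1 class in 1 embryo with at least 3 cells of it, scaled by edgeR's TMM, so the embryo is the replicate and a mean ± SD runs over embryos. Embryos were told apart by the plate and number in the titles, and 9 E3.5 cells with no embryo number made up 1 of the sums, which may hold more than 1 embryo. This gave 10 ICM sums, 5 epiblast-like and 5 PrE-like sums at E4.5, 8 epiblast-like sums and 1 endoderm-like sum at E5.5, and 13 epiblast-like, 5 endoderm-like and 1 streak-like sum at E6.5, with 1476466 to 49484352 counts each.

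The classes carried the markers of their names, with some admixture. The summed level of 20 endoderm markers was 9553 to 16348 CPM in PrE-like sums against 1436 to 4000 CPM in E4.5 epiblast-like sums, and 12506 to 39197 CPM in E6.5 endoderm-like sums against 668 to 8363 CPM in E6.5 epiblast-like sums. In E5.5 epiblast-like sums it was 345 to 611 CPM, below every E6.5 epiblast-like sum. Trophectoderm and extra-embryonic ectoderm markers (10 genes) summed to 1025 to 2332 CPM in E6.5 endoderm-like and 428 to 2030 CPM in ICM sums against 102.3 to 744 CPM in E6.5 epiblast-like sums. At E4.5 they summed to 153.6 to 459 CPM in epiblast-like and 136.6 to 323 CPM in PrE-like sums. Of the 10 genes 6 and 7 were detected there, and Cdx2, Krt7 and Tfap2c were at 0 in both classes. In E6.5 endoderm-like sums 8 were detected, with Wnt7b and Tfap2c at 0, and in ICM 9, with Ascl2 at 0. Tex19.1 alone held 167.9 to 1048 CPM in ICM sums, where Cdx2 held 0 to 116.6 CPM and Elf5 0 to 28.3 CPM. Extra-embryonic mesoderm markers, of which 5 of 6 had a line, summed to at most 45.2 CPM in any sum. Of the wells 17.8% held cell pairs by eye, and these were kept. Pairs were most frequent among E4.5 wells (36.2%), then among those of E5.5 (25.1%), E3.5 (9.09%) and E6.5 (5.6%). A well with a pair is treated as a cell in the shares of cells with a count. Shares of the E4.5 classes therefore rest on more pairs than those of ICM or the E6.5 classes. Single cells had 66896 to 3792936 counts, with a median of 692863.

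The level of each gene across classes and stages sets out the pattern. On a scale of CPM per kilobase of exon, Id3 was the highest of the 10 in ICM (mean 227.3 ± 115.3, n = 10), in E4.5 (205.6 ± 71.4, n = 5), E5.5 (244.2 ± 82.7, n = 8) and E6.5 epiblast-like sums (417.1 ± 111.6, n = 13), and in E6.5 endoderm-like sums (250.8 ± 156.4, n = 5). In PrE-like sums Id1 came first (263.003 ± 167.1, n = 5) and Id3 next (131.97 ± 89.4). The ligands lay far lower: the highest ligand mean per kilobase was that of Bmp4 in E4.5 epiblast-like sums (37.7 ± 21.9), where it ranked second after Id3, and Bmp2 was next with 13.6 ± 15.5 in E6.5 endoderm-like sums. Bmpr1a had a mean of 5.13 to 13.2 CPM per kilobase in every class, and Bmpr2 had at most 0.548. Many neighbours in these orders overlapped between embryos, as Id1 and Id3 did in PrE-like sums.

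**Figure D1:**
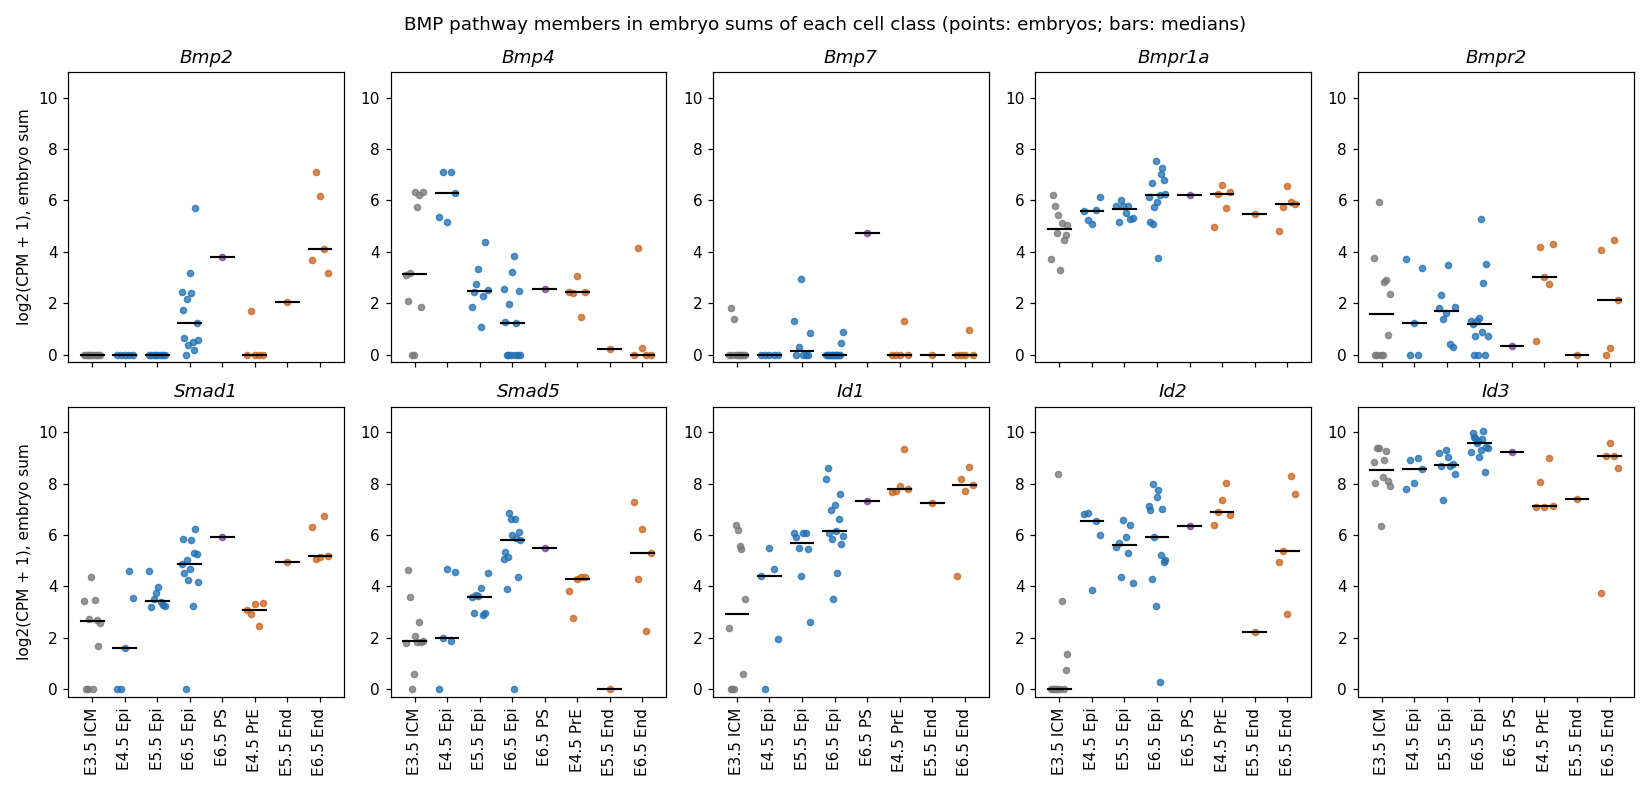
Level of each of the 10 genes in every embryo sum (log2 of CPM + 1 against class and stage), with each point 1 embryo and each bar the median. Id3 is high in all classes, Id1 stands above epiblast in PrE-like sums, Bmp4 is highest in E4.5 epiblast-like sums (35.02 to 136.5 CPM) and Bmp2 is at 0 in ICM, E4.5 and E5.5 epiblast-like sums.

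Differences between classes and stages were tested with edgeR's quasi-likelihood test on the embryo sums, with Benjamini-Hochberg adjustment over all 16822 genes tested. A gene is said to pass when its adjusted p was at most 0.05 and its log2 fold change beyond 1. From E3.5 ICM to E4.5 epiblast, 0 of the 10 genes passed, where 20.1% of all genes did; 0 had an unadjusted p under 0.05 (33.9% of all genes), and DESeq2 called 0. From E4.5 to E5.5 epiblast 0 passed against 6.25% of all genes, with 2 at an unadjusted p under 0.05 (22.9% of all) and 1 called by DESeq2. From E5.5 to E6.5 epiblast 2 passed, Bmp2 and Smad5, against 12.5% of all genes.
PrE-like against epiblast-like sums at E4.5 gave 1 gene, Id1, against 6.33% of all genes, and ICM against PrE-like sums gave 2, Id1 and Bmp2, against 18.8%. E6.5 endoderm-like against epiblast-like sums gave 0 against 7.19%, with 1 gene at an unadjusted p under 0.05 (27% of all) and 0 called by DESeq2. PrE at E4.5 against endoderm at E6.5 gave 1 gene, Bmp2, against 6.63%. Streak-like against epiblast-like sums gave 0 against 0.0654%, with 1 gene at an unadjusted p under 0.05 (3.31% of all) and 0 called by DESeq2. These counts are small beside a list of 10, and several comparisons share sums, so the values of each gene follow. The E4.5 epiblast-like sums serve 3 comparisons, and so do the PrE-like and the E6.5 epiblast-like sums.
The median log2 fold change of the 10 genes was 0.85 from E5.5 to E6.5 epiblast, where that of all genes was -0.01, and 0.70 for PrE-like against epiblast-like sums, where that of all genes was 0.02. It was 0.51 for endoderm-like against epiblast-like sums at E6.5, with -0.27 over all genes. From E4.5 to E5.5 epiblast it was 0.06 with 0.23 over all genes, and from PrE to E6.5 endoderm -0.25 with -0.13. From ICM it was 0.17 to epiblast with 0 over all genes and 0.69 to PrE with 0.13, and for streak-like against epiblast-like sums it was 0.10 with -0.07.
From PrE to E6.5 endoderm the genes other than Bmp2 and Smad1 had log2 fold changes from -0.61 for Bmp7 to 1.92 for Smad5 (adjusted p = 0.229). Id3 had 0.93 (adjusted p = 0.226), and Bmp4, Id1, Id2, Bmpr2 and Bmpr1a lay between -0.39 and -0.20.

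**Figure D2:**
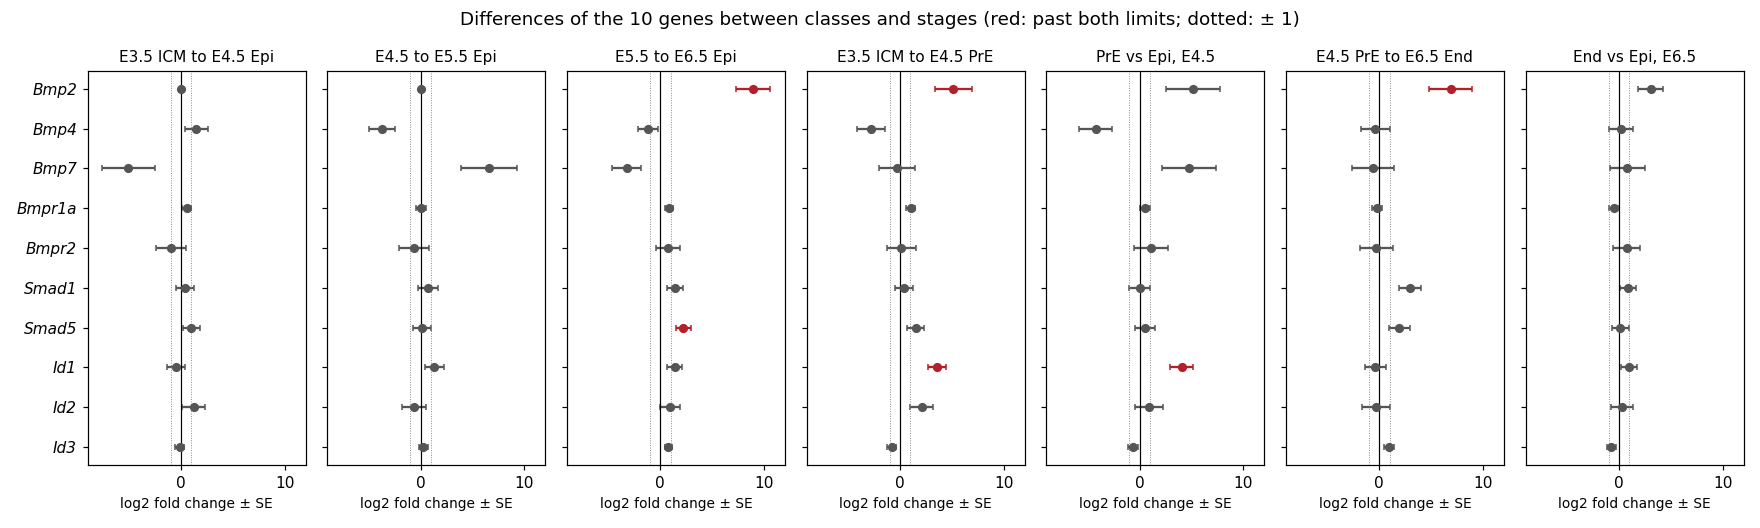
Log2 fold change of each of the 10 genes (points, with bars of 1 standard error) in 7 comparisons of embryo sums, red where a gene passed both limits, with dotted lines at a log2 fold change of 1 in either direction. The red points are Bmp2 and Smad5 from E5.5 to E6.5 epiblast, Id1 in PrE-like against E4.5 epiblast-like and against ICM sums, and Bmp2 against PrE-like and ICM sums.

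Bmp4, the BMP ligand best known from the extra-embryonic ectoderm, was highest in E4.5 epiblast. Its 5 epiblast-like sums held 35.02, 40.4, 77.6, 134.8 and 136.5 CPM. The PrE-like sums of the same 5 embryos held 1.74, 4.24, 4.34, 4.46 and 7.41 CPM, and the 2 classes did not overlap. A CPM of a class sum cannot by itself tell fewer cells with the transcript from less of it per cell. The share of cells with at least 1 Bmp4 count was 81.5% of 27 epiblast-like cells (61.9 to 93.7%, a 95% Clopper-Pearson interval that, like those that follow, covers counting alone) and 12.8% of 78 PrE-like cells (6.32 to 22.3%). The share of cells thus differed, and the level per cell with a count was not compared. The log2 fold change of PrE-like against epiblast-like sums was -4.26 (SE 1.56, adjusted p = 0.0853) and missed the threshold. In edgeR fits of these 2 classes alone it was -4.27 with no block (adjusted p = 2.56e-04) and -4.17 with the embryo as a block (adjusted p = 0.00398). Bmp4 was lower in PrE-like cells in 5 of 5 embryos.
Bmp4 was lower again in E5.5 epiblast. The 8 sums ranged from 1.13 CPM through a median of 4.56 CPM to 20.0 CPM, all below the lowest E4.5 epiblast-like sum. The log2 fold change was -3.72 (SE 1.26, adjusted p = 0.0614) in edgeR's test, and DESeq2 gave an adjusted p of 0.0259. At this depth 16.2% of cells had a Bmp4 count (11.9 to 21.3%). At E6.5 the 13 epiblast-like sums went from 0 through a median of 1.36 CPM to 13.4 CPM, with 6 sums at 0, and overlapped those of E5.5 (log2 fold change -1.15, SE 0.96, adjusted p = 0.48).
Before E4.5, Bmp4 was uneven between embryos. The 10 ICM sums went from 0 through a median of 7.72 CPM to 80.1 CPM: 6 embryos lay at or below 7.95 CPM and the other 4 at or above 52.8 CPM. The 3 E3.5 embryos with the most cells were all among these 4. The E4.5 epiblast-like mean of 84.9 ± 49.2 CPM (n = 5) did not differ from the ICM mean of 30.5 ± 35.7 CPM (n = 10) beyond this spread (log2 fold change 1.47, SE 1.14, adjusted p = 0.395), and the groups overlapped. Against PrE-like sums ICM was higher by value (log2 fold change -2.79 for PrE-like minus ICM, SE 1.37, adjusted p = 0.148).

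Bmp2, a ligand known in VE and later in the heart-forming region, was at 0 in ICM and in epiblast before E6.5, and low in endoderm before that stage. In ICM, E4.5 epiblast-like and E5.5 epiblast-like sums 0 counts were seen, in 0 cells of any of the 3 classes. A count of 0 allows a share of cells with a count of up to 3.03%, 11.1% and 1.16%. In PrE-like sums it was 0 in 4 embryos and 2.23 CPM in the fifth, from 10 counts in 1 cell. At E6.5 the 5 endoderm-like sums held 8.14, 11.8, 16.3, 70.2 and 135.7 CPM, all above every PrE-like sum. The log2 fold change between these stages was 6.86 (SE 2.03, adjusted p = 0.0362). The call was lost without any 1 of 6 of the 10 embryos (E4.5 embryos 1, 3, 4 and 5, and E6.5 embryo 5 of plate P2 and embryo 8 of plate P3), with adjusted p-values of 0.0053 to 0.0917 and log2 fold changes of 5.98 to 12.04 over all 10. It was also lost with single wells only (adjusted p = 0.192). The ICM to PrE call (log2 fold change 5.14, SE 1.80, adjusted p = 0.041) rests on those 10 counts: without E4.5 embryo 2 of plate P1 the log2 fold change is 0, and DESeq2 gave an adjusted p of 0.137.
In E6.5 epiblast-like sums Bmp2 ran from 0 through a median of 1.35 CPM to 51.5 CPM (313 counts over 13 embryos), where E5.5 had 0 counts in all 8. It was at least 198.1-fold higher in total than the level that 3 counts over the E5.5 group would give (adjusted p = 4.23e-04), and it passed without any 1 of the 21 embryos (log2 fold change 7.54 to 9.11). The 9 E6.5 embryos on named plates had 7.62 ± 16.7 CPM and the 4 with no plate name 2.12 ± 1.67 CPM. The highest sum, embryo 9 of plate P3, got its 94 counts from 1 of 3 cells. Cells with a Bmp2 count made up 17.4% of the epiblast-like cells (28 cells, 11.9 to 24.1%), in 12 of 13 embryos. Endoderm markers moved with this result. They summed to a median of 2124 CPM in those 28 cells and 925 CPM in the other epiblast-like cells, and epiblast markers to 4380 and 4792 CPM. Their part in the result was not tested.
Between classes at E6.5, 71.9% of 32 endoderm-like cells had a Bmp2 count (53.3 to 86.3%). The endoderm-like mean was 48.4 ± 54.97 CPM (n = 5) against 5.93 ± 13.9 CPM (n = 13) in epiblast-like sums, and the log2 fold change of 3.05 (SE 1.21, adjusted p = 0.108) missed the threshold. With the embryo as a block it was 5.07 (adjusted p = 0.0487), with endoderm higher in 5 of 5 embryos. That fit holds only the 5 embryos with both classes, so it also leaves out embryo 9 of plate P3, the highest epiblast-like sum. Without that embryo and with no block the log2 fold change was 4.49 (adjusted p = 0.0152), so the unblocked call turned on that embryo's 1 cell. Of streak-like cells 73.9% had a count (51.6 to 89.8%), at a level of 12.8 CPM. This lay within the epiblast-like range only through embryo 9 of plate P3, since the next highest sum held 7.95 CPM. The single E5.5 endoderm-like sum held 3.14 CPM, from 21 counts, and 2 of the 8 E5.5 endoderm-like cells had a count (25%, 3.19 to 65.1%), a level and a share above the median and the share of E6.5 epiblast.

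Bmp7, a ligand that is known to form dimers with BMP2 and BMP4, had its highest level in streak-like cells among the classes sampled, and no other class had a sum above 6.59 CPM. The streak-like sum held 25.7 CPM, from 414 counts in 20 of 23 cells (86.96%, 66.4 to 97.2%). The 13 epiblast-like sums at E6.5 went from 0 to 0.845 CPM with a median of 0 and 11 sums at 0, and 5 cells had a count (3.11%, 1.02 to 7.10%). The log2 fold change was 7.72 (SE 2.02) with an unadjusted p of 3.98e-04 and an adjusted p of 0.126, so it did not pass. This test has 1 streak-like embryo, whose sum is taken to vary like those of other groups.

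**Figure D3:**
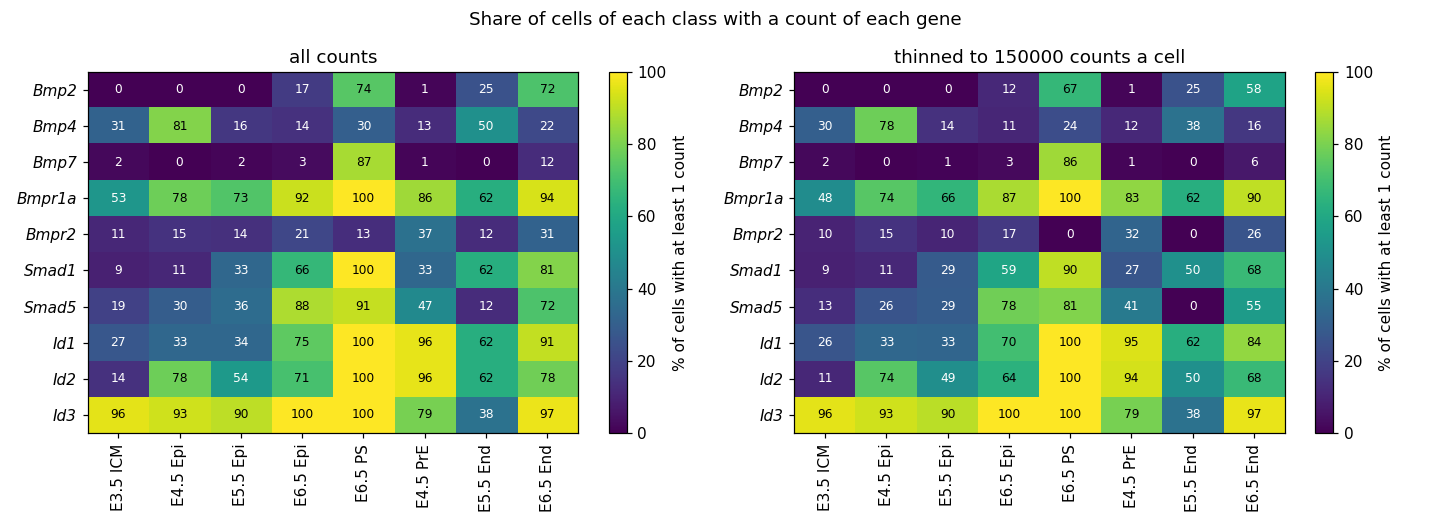
Share of cells with at least 1 count (percent, as colour and number) for each of the 10 genes in each class, with all counts in the left panel and with every cell thinned to 150000 counts in the right. With all counts Bmp7 reaches 86.96% in streak-like cells and at most 12.5% elsewhere, and Bmp2 reaches 73.9% and 71.9% in streak-like and E6.5 endoderm-like cells.

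A split of the E6.5 cells by T (Brachyury), which is not a BMP gene, brought in more embryos. Cells other than endoderm-like ones were parted at 10 CPM of T, which gave 4 sums with T and 13 without. Bmp7 had 427 counts with T, but 414 of these came from the embryo with the streak-like cells, and the other 3 T-positive sums had 0, 4 and 9 counts. The T-negative sums of that same embryo and of 10 others had 0 counts. Bmp7 fell under the filter for low counts in this comparison and was not tested. Of the other 9 genes 0 passed, where 0.00828% of the 12071 genes tested did, with 0 at an unadjusted p under 0.05 (2.38% of all) and 0 called by DESeq2. The log2 fold changes ran from -2.96 for Bmpr2 (SE 1.59) to 0.65 for Bmp4 (SE 1.52). Between them lay Bmp2 (-0.93), Id2 (-0.80), Id1 (-0.20), Smad5 (-0.08), Smad1 (0.15) and Bmpr1a (0.16). Id3 had the smallest standard error, with 652.1 ± 125.5 CPM in 4 sums with T and 750.9 ± 148.5 CPM in 13 without (log2 fold change -0.20, SE 0.20).
In the other classes Bmp7 ran from 0 through a median of 0.117 to 6.59 CPM in the 8 E5.5 epiblast-like sums, against 0 to 0.845 CPM in the 13 of E6.5. The log2 fold change of -3.24 (SE 1.41, adjusted p = 0.117) did not pass. Without the cells titled E6.75 it was -6.54 (adjusted p = 0.0198), and without E6.75 embryo 2 alone it was -4.34 (adjusted p = 0.0433).

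The receptors differed in how even they were across embryos. Bmpr1a, a type I receptor needed for gastrulation, had means of 32.6 ± 19.4 CPM in ICM, 46.9 ± 13.9 in E4.5 epiblast-like, 47.6 ± 10.01 in E5.5 epiblast-like and 83.8 ± 49.97 CPM in E6.5 epiblast-like sums. PrE-like sums had 66.8 ± 26.1 CPM and E6.5 endoderm-like sums 57.9 ± 23.4 CPM. It was above 0 in all 48 sums, and its share of cells with a count went from 52.5% in ICM to 91.9% in E6.5 epiblast-like and 100% in 23 streak-like cells. The nearest to a change were the steps from E5.5 to E6.5 epiblast (log2 fold change 0.81, SE 0.37, adjusted p = 0.133) and from ICM to PrE (1.04, SE 0.42, adjusted p = 0.0748). The latter passed without embryo 1 of plate P8 (adjusted p = 0.0299) and with sums of at least 5 cells (1.41, adjusted p = 0.00754).
Bmpr2, the type II receptor, was sparse and uneven. It had 8.97 ± 18.3 CPM in ICM and 4.83 ± 10.4 CPM in E6.5 epiblast-like sums, with SDs above the means and 4 and 3 sums at 0. Its means lay between 2.96 ± 3.20 CPM in E5.5 epiblast-like and 9.85 ± 7.85 CPM in PrE-like sums, and the lowest adjusted p of any comparison was 0.749. The share of cells with a count was highest in PrE-like cells, 37.2% of 78 (26.5 to 48.9%), against 14.8% of 27 epiblast-like cells of the same stage (4.19 to 33.7%). One ICM embryo, embryo 3 of plate P8, held 59.7 CPM where the others held 0 to 12.6 CPM. Its transcript is the longest of the 10 (17.983 kb of exon), so per kilobase it was the lowest or among the 3 lowest in every class.

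Smad1 and Smad5, the transducers that BMP receptors phosphorylate, were low until E5.5. Smad5 had means of 5.41 ± 7.19 CPM in ICM, 10.6 ± 12.02 in E4.5 epiblast-like and 11.4 ± 5.24 CPM in E5.5 epiblast-like sums. In the 8 E5.5 sums it ran from 6.48 through a median of 11.2 to 22.2 CPM. In the 13 E6.5 epiblast-like sums it ran from 0 through 54.6 to 115.7 CPM, with a mean of 53.2 ± 34.7 CPM.
Smad5 thus rose by 2.23 on the log2 scale (SE 0.75, adjusted p = 0.0376), although the ranges overlapped. The share of cells with a count rose with it, from 35.5% (29.7 to 41.7%) to 87.6% (81.5 to 92.2%), and after thinning every cell to 150000 counts from 29.1% to 78.2%. Within the E6.5 embryos, the 9 on named plates had 55.2 ± 41.2 CPM and the 4 with no plate name 48.7 ± 16.1 CPM. The call depended on single embryos: it was lost without any 1 of 10 of the 21, namely 7 of the 8 E5.5 embryos and E6.5 embryos 3 of P1, 4 of P2 and 7 of P3, with adjusted p-values of 0.0192 to 0.0692 over all 21 and log2 fold changes of 2.08 to 2.44.
Smad1 had the same order without passing. Its E5.5 epiblast-like mean was 11.9 ± 5.00 CPM and its E6.5 mean 31.6 ± 20.8 CPM (log2 fold change 1.41, SE 0.75, adjusted p = 0.22). In endoderm it was 4.57, 6.70, 7.53, 8.96 and 9.14 CPM in PrE-like sums and 32.4, 34.7, 35.6, 77.9 and 107.3 CPM in E6.5 endoderm-like sums, with no overlap. That log2 fold change was 2.96 (SE 1.08, adjusted p = 0.0806), and DESeq2 gave an adjusted p of 0.00764. Shares of cells with a Smad1 count were 33.3% of PrE-like and 81.2% of E6.5 endoderm-like cells, or 26.9% and 67.7% after thinning.

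Id1 was the target with the clearest difference between classes. The E4.5 epiblast-like sums held 0, 2.91, 19.99, 24.97 and 44.2 CPM, and the PrE-like sums of the same embryos held 206.2, 209.7, 219.5, 238.9 and 651.1 CPM. No PrE-like sum came near an epiblast-like one. Id1 was higher by 4.04 on the log2 scale (SE 1.13, adjusted p = 0.0225), in 5 of 5 embryos. In a fit of these 2 classes alone with the embryo as a block, Id1 was higher by 4.59 (adjusted p = 0.00352). Leaving out embryo 1, 2, 4 or 5 of this stage in turn lost the unblocked call (log2 fold change 3.73 to 4.73 and adjusted p 0.0301 to 0.0949 over the 5 embryos).
Id1 counts were found in 96.2% of 78 PrE-like cells (89.2 to 99.2%) and 33.3% of 27 epiblast-like cells (16.5 to 53.96%). Against ICM, where 27.3% of 99 cells had a count and the sums ran from 0 through a median of 7.29 to 82.97 CPM, PrE-like sums were higher without overlap. That log2 fold change was 3.55 (SE 0.85, adjusted p = 0.00194), and it passed without any 1 of the 15 embryos (3.09 to 3.94). ICM and E4.5 epiblast-like sums overlapped (log2 fold change -0.50, SE 0.89).
In the epiblast Id1 was higher at later stages by value. Its means were 18.4 ± 17.96 CPM at E4.5, 46.4 ± 23.2 at E5.5 and 120.9 ± 111.1 CPM at E6.5, and neither step passed (log2 fold changes 1.33 and 1.38, adjusted p = 0.435 and 0.225). At E6.5 the 4 embryos with no plate name had 197.97 ± 169.8 CPM and the 9 on plates 86.7 ± 58.4 CPM. Of the 4, E6.5 embryos 1 and 2 held 287 and 393 CPM and the E6.75 embryos 49.7 and 62.1 CPM. The first pair also had the highest endoderm marker sums of the class, 8363 and 4883 CPM, whose part in the gap was not tested. The endoderm-like sums of E6.5 held 20.1, 211.7, 247.3, 285.9 and 398.8 CPM, which overlapped with epiblast (log2 fold change 0.94, SE 0.79, adjusted p = 0.469).
The difference of endoderm minus epiblast was therefore 4.04 at E4.5 and 0.94 at E6.5. A test of the change of this difference, added after the values were seen, gave -3.10 for Id1 (SE 1.36, unadjusted p = 0.0274, adjusted p = 0.205) and 4.48 for Bmp4 (SE 1.84, unadjusted p = 0.0184, adjusted p = 0.169). Of the 10 genes 0 passed by edgeR's test where 2.54% of all genes did, and 2 had an unadjusted p under 0.05 (17.4% of all).

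**Figure D4:**
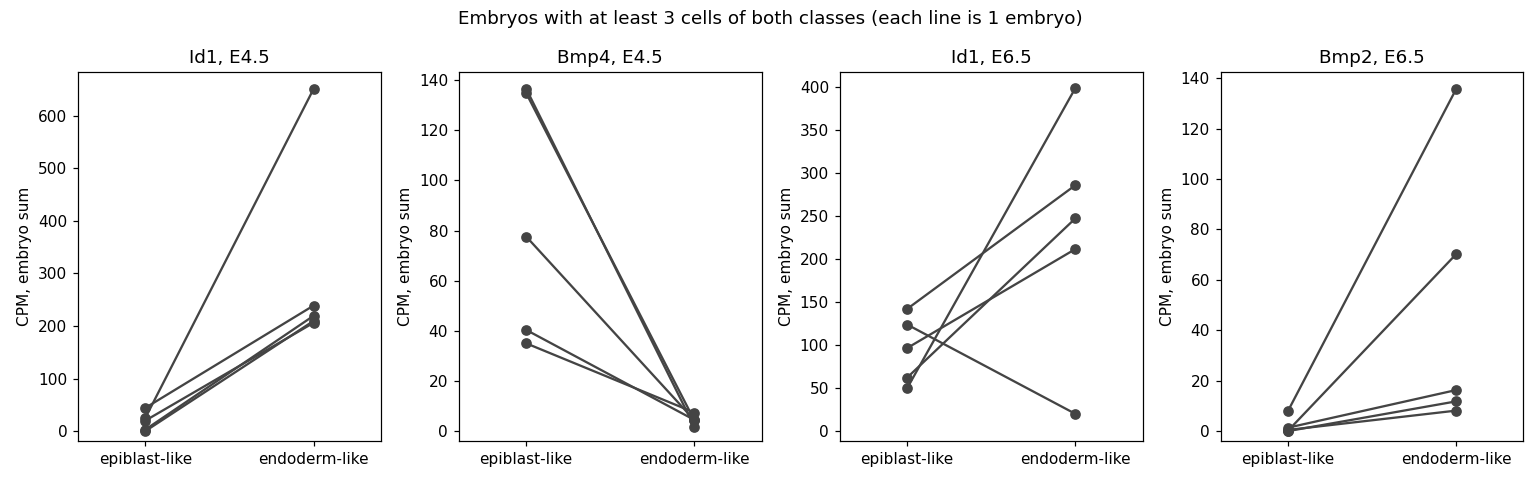
Id1 and Bmp4 at E4.5 and Id1 and Bmp2 at E6.5 in the epiblast-like and endoderm-like sums of the same embryos (CPM), with a line for each embryo. At E4.5 all 5 lines go up for Id1 and down for Bmp4 from epiblast to PrE, and at E6.5 all 5 go up for Bmp2 and 4 of 5 for Id1.

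Id2, known for its part in trophoblast and lymphoid cells, was near 0 in ICM apart from 1 embryo. Embryo 4 of plate P8 held 328 CPM, and the other 9 held 0 to 9.68 CPM with 6 at 0. All 1334 counts lay in 1 of its 4 cells, at 1351 CPM. That cell also had 459 CPM of Cdx2, 111.4 of Elf5, 1604 of Krt8 and 1885 of Krt18, genes of trophectoderm and its descendants, with 2393 CPM of Pou5f1 and 0 counts of Sox2, Fgf4 and Pdgfra. Nanog was at 75.9 CPM and Gata6 at 55.7 CPM, where 78 and 69 of the 98 other E3.5 cells had as much. Hand1, a factor of trophoblast and mesoderm, was at 0. Of the 98 other E3.5 cells 0 had as much Cdx2, Elf5 or Krt18 and 1 had as much Krt8. The rest of the trophectoderm list was mixed: Krt7 and Ascl2 were at 0, Tfap2c was at 8.10 CPM, where 80 other cells had as much, Tex19.1 at 499 CPM, where 46 did, and Wnt7b at 89.1 CPM, where 1 did. Cells with counts of each of Elf5, Wnt7b and Tex19.1 were to be left out as trophoblast before deposit. By that rule this cell, which had all 3, would have been left out.
That cell decided whether Id2 passed. The E4.5 epiblast-like sums held 13.6, 62.4, 93.8, 113.03 and 115.95 CPM and the PrE-like sums 83.02, 108.5, 116.8, 162.9 and 260.3 CPM, all above the other 9 ICM embryos. With the embryo the log2 fold changes from ICM were 1.23 to epiblast (SE 1.11, adjusted p = 0.493) and 2.10 to PrE (SE 1.10, adjusted p = 0.179). Without it they were 5.66 (adjusted p = 1.49e-05) and 6.53 (adjusted p = 1.57e-06).
Shares of cells do not hang on 1 cell, but they pool cells over embryos, so they are a description without the embryo as replicate. Of the 99 ICM cells, embryos 6, 9 and 7 of plate P9 gave 28, 18 and 17. Id2 counts were found in 14.1% of ICM cells (7.95 to 22.6%), 77.8% of E4.5 epiblast-like cells (57.7 to 91.4%) and 96.2% of PrE-like cells (89.2 to 99.2%), and in 54.1% of E5.5 and 70.8% of E6.5 epiblast-like cells. PrE-like and epiblast-like sums overlapped at E4.5 (log2 fold change 0.88, SE 1.33). From E5.5 to E6.5 epiblast the means were 51.2 ± 27.9 and 94.6 ± 85.1 CPM (log2 fold change 0.88, SE 0.97, adjusted p = 0.619).

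Id3 was the most widely expressed of the 10 in ICM and epiblast. It had a count in 95.96% of ICM, 92.6% of E4.5 epiblast-like, 89.96% of E5.5 epiblast-like and all E6.5 epiblast-like cells. In PrE-like cells the share was 79.5% (68.8 to 87.8%), below the 96.2% of Id1 and of Id2. Of the 8 E5.5 endoderm-like cells 37.5% had an Id3 count and 62.5% an Id1 count. The ICM sums ran from 80.3 through 379.7 to 676 CPM, the E5.5 epiblast-like sums from 165.2 through 425 to 635 CPM, and the E6.5 ones from 351 through 768 to 1068 CPM.
No comparison passed for Id3. The step from E5.5 (437.4 ± 148.1 CPM, n = 8) to E6.5 epiblast (747 ± 199.9 CPM, n = 13) had a log2 fold change of 0.77 (SE 0.35, adjusted p = 0.13), and these ranges overlapped. At E4.5 Id3 ran against Id1: its 5 PrE-like sums had 134.8, 135.6, 140.002, 266.9 and 504.4 CPM and its epiblast-like sums 217.99, 260.1, 379.1, 479.7 and 504.6 CPM. The log2 fold change was -0.64 (SE 0.48, adjusted p = 0.462). In a fit of these 2 classes alone with the embryo as a block it was -0.80 with an adjusted p of 0.0295, short of the fold limit. Among the cells of single embryos, Pearson's r of Id1 and Id3 was 0.45 and 0.61 in the 2 PrE-like groups of at least 15 cells and -0.15 to 0.29 in 8 E5.5 epiblast-like groups. These are descriptions, since cells share their embryo and differ in depth.

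The single E5.5 endoderm-like sum, of 5 cells, had 151.9 CPM of Id1, 168.1 of Id3, 43.3 of Bmpr1a and 30.0 of Smad1, with 3.74 of Id2 and 0 of Smad5, Bmpr2 and Bmp7. With 1 sum it was not compared. The streak-like sum had 160.1 CPM of Id1, 81.7 of Id2, 607 of Id3, 72.2 of Bmpr1a, 59.98 of Smad1, 43.7 of Smad5, 4.89 of Bmp4 and 0.248 of Bmpr2. All 8 of these lay within the range of the 13 epiblast-like sums of E6.5, so Bmp7 was the 1 gene of the 10 whose streak-like level lay outside it.
The 34 unnamed E6.5 cells, which had a median of 4892.5 genes detected and a median of 1476455 counts, had 605 CPM of Id3, 156.9 of Id1, 107.6 of Id2, 16.4 of Bmp2 and 0 of Bmp7 as a pool of all cells.

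The other 45 genes of the pathway list put these members beside their partners. Of these, 37 were tested in the joint comparisons. From ICM to E4.5 epiblast 8 were higher and 2 lower, where 20.1% of all genes passed, and from ICM to PrE 11 were higher and 1 lower, where 18.8% did. Smad4, the partner shared by all receptor-activated SMADs, had 12.8 ± 9.8 CPM in ICM, 50.6 ± 34.3 in E4.5 epiblast-like (log2 fold change 1.97, adjusted p = 0.00436) and 55.5 ± 10.6 CPM in PrE-like sums (2.11, adjusted p = 0.00256). Twsg1, which encodes a secreted binder of BMPs, rose in both (log2 fold changes 5.80 and 6.01), and so did Smurf2, a ubiquitin ligase that acts on SMADs (2.05 and 2.35). These 3 were named after their values were seen, for passing in both steps. The ligand Bmp8a also rose in both, from a mean of 0.147 ± 0.386 CPM in ICM to 21.8 ± 30.2 CPM in epiblast (adjusted p = 0.00128) and 7.68 ± 8.97 CPM in PrE (adjusted p = 0.00844). Id4 and Smad6, with 0 counts in ICM, were at least 90.6-fold and 58.99-fold higher in epiblast, and Bmp6, also at 0 in ICM, was at least 124.8-fold higher in PrE. Hand1, a factor of trophoblast and mesoderm, had 724 counts in ICM and 0 in both E4.5 classes. Tbx3, also named after its values were seen, had 27.8 ± 5.15 CPM in E4.5 epiblast-like sums against 161.6 ± 60.4 CPM in ICM (log2 fold change -2.54, adjusted p = 0.0474). Fst, which encodes follistatin, had 0 counts in ICM and was at least 203.3-fold higher in epiblast, and Gdf5 rested on 1 embryo.
Between PrE-like and epiblast-like sums at E4.5, 2 were higher and 0 lower, where 6.33% of all genes passed. Bmper, a secreted BMP binder, had 54.7 ± 22.2 CPM in PrE-like sums and 0 counts in epiblast-like ones, at least 310-fold higher (adjusted p = 0.00678). Bmp6 had 8.98 ± 4.92 CPM against 0 counts, at least 39.5-fold higher (adjusted p = 0.0248). In the same sums Bmp4 ran the other way by value.
From E4.5 to E5.5 epiblast 0 were higher and 2 lower, Tbx3 (-5.95, adjusted p = 4.17e-05) and Bmp8a (-5.46, adjusted p = 0.0344), where 6.25% of all genes passed. From E5.5 to E6.5 epiblast 3 were higher and 1 lower, where 12.5% of all did. Cer1, which encodes an antagonist of BMP, Nodal and Wnt from the anterior VE, went from 0 counts to 34.8 ± 37.8 CPM, at least 1656-fold higher (adjusted p = 2.8e-07). Skil, which encodes an inhibitor of SMADs, went from 188.3 ± 54.7 to 557 ± 379 CPM (1.56, adjusted p = 0.0107), Tbx3 rose from 0.412 ± 0.552 to 10.4 ± 17.97 CPM (adjusted p = 2.59e-04), and Grem1 fell from 3.70 CPM in 1 embryo to 0 counts. Endoderm markers, which summed to 345 to 611 CPM in the E5.5 and 668 to 8363 CPM in the E6.5 epiblast-like sums, rose over the same step as Cer1 and Tbx3. Their part was not tested. Between E6.5 embryos Cer1 did not keep their order: epiblast-like sums with 8363, 4883, 4112 and 668 CPM of endoderm markers had 3.36, 12.3, 136.8 and 29.8 CPM of Cer1. Cer1 is itself among the 4 anterior VE markers used here, which summed to 9.21 to 226.4 CPM at E5.5 and 2.71 to 149.7 CPM at E6.5.
At E6.5 endoderm-like sums had 5 higher and 0 lower than epiblast-like ones, where 7.19% of all genes passed. Cer1 had 366 ± 351 CPM there (log2 fold change 3.40, adjusted p = 0.00568), Tbx3 77.5 ± 58.1 CPM (2.93, adjusted p = 0.0106), and Prdm1 40.2 ± 49.8 CPM (4.28, adjusted p = 0.0307). Bmp6 (5.15) was at 0 in 3 of 5 endoderm-like sums, and Nog (6.34), which encodes the antagonist noggin, rested on 1 embryo. From PrE to E6.5 endoderm 3 were higher (Cer1 12.14, Msx1 10.24 and Nog) and 1 lower (Bmp8a), where 6.63% of all did. In the streak-like comparison and by T, 0 of 37 and 0 of 28 passed by edgeR's test, where 0.0654% and 0.00828% of all genes did, with 5 and 0 at an unadjusted p under 0.05.

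A pair of other splits of cells, given without a test, bear on differences within a class. Fgf4 marks the first epiblast-directed cells of the ICM, and 50 of 99 E3.5 cells had at least 10 CPM of it. In the 5 embryos with at least 3 cells on both sides, Bmp4 was higher in cells with Fgf4 in 2 of 5, as were Id1, Id2, Id3 and Smad1, Bmpr1a in 1 of 5, and Bmpr2 and Smad5 in 4 of 5. Id2 was at 0 on both sides in 2 of the 5, and Bmp2 and Bmp7 had no count on either side in any. Pooled levels were 22.1 CPM of Bmp4 with Fgf4 and 58.4 without, and 407 and 425 CPM of Id3. Bmp4 thus had no common direction along this split, unlike its epiblast and PrE values of E4.5.
Cer1 marks anterior VE, and 18 of the 32 E6.5 endoderm-like cells had at least 10 CPM of it. No embryo had 3 cells on both sides, so embryo and split cannot be told apart. Bmp2 was at 67.5 CPM with Cer1 and 10.3 CPM without, in 83.3% and 57.1% of cells, and Id2 was at 63.9 and 324 CPM, in 61.1% and 100% of cells. Id1 was at 235.6 and 374 CPM, and Id3 at 443 and 611 CPM.
Each of the 10 genes was also set beside all tested genes over the 48 sums of all classes and stages, by Pearson's r of log2 CPM. Bmp2 and Cer1 were both at 0 in ICM, E4.5 epiblast-like and E5.5 epiblast-like sums, so their r does not speak to differences within endoderm. Bmp2 was most like Cer1 (r = 0.87) and Apob (0.84), and Id1 most like Cited2 (0.82) and Itgb3bp (0.77). Bmp7 was most like Ntrk3 (0.76), Id2 like Cd81 (0.78) and Bbx (0.75), Id3 like 2700097O09Rik (0.76) and Foxn3 (0.70), and Bmp4 like Ccrn4l (0.72) and Map4k1 (0.71). For Smad1 these were Reep6 (0.75) and Ptprk (0.72), for Smad5 Tsc22d2 (0.74) and Dstn (0.72), for Bmpr1a Hnrnph1 and Tnks2 (both 0.68), and for Bmpr2 Erlin1 (0.64) and Ntpcr (0.56). Among the 10 themselves the closest pair was Id1 and Id2 (0.60) and the most opposed was Bmp4 and Bmpr1a (-0.37). The 48 points share stages, embryos and depth, so these values describe likeness and carry no test.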

How the data were processed

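Counts per gene and cell were deposited by the authors as 1 table of raw counts. Per the submitters' processing notes in the labels, reads were trimmed with Trim Galore 0.4.3 and aligned to GRCm38 with HISAT2 2.0.5 (the study's methods name other versions of both). Per those methods they were counted over genes in SeqMonk, and cells of low quality were left out before deposit. Counting is by gene symbol, and reads carry no molecular identifiers.
The 10 genes, the other gene lists and the comparisons were chosen with earlier results of these data known. Cells were clustered by a consensus procedure written after SC3, without the 10 genes and the 45 other pathway genes, and clusters were named by fixed markers. Raw counts were summed per class and embryo (at least 3 cells) and fitted in 1 model of 48 sums with edgeR 4.0.16 (R 4.3.3; filterByExpr, TMM, quasi-likelihood test, 16822 genes), or of 17 sums and 12071 genes for the split by T, with Benjamini-Hochberg adjustment. A gene was called when its log2 fold change lay beyond 1 in either direction and its adjusted p reached 0.05. The script was tested on simulated data. DESeq2 1.42.0, the embryo as a block, other cell limits and the other alternatives are in the closing section, as are 2 chosen after seeing the data (leaving out cells whose markers go against their class, and adding unnamed cells). No doublet caller was run, since pairs had been noted by eye, and single wells only were an alternative. Pairing comes from the embryo in the titles: the deviations of 2 classes of 1 embryo correlated at 0.0235 to 0.138 at E4.5, 0.0523 to 0.203 at E6.5 and 0.0451 to 0.195 for the split by T.
By the rule for named genes all 10 count in every comparison. The plot of log2 fold changes shows them in 7 comparisons, and the text gives values for those it describes. Of the other pathway genes up to 6 called ones with the largest change are named. For 1 of the 10, the second most alike gene is not reported here. A fold against a group with 0 counts is a lower bound set by 3 counts over the group. Tables were handled with Python 3.11.15, numpy 2.4.6 and pandas 2.3.3.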

Additional observations from a re-analysis of the deposited data

Results flagged for a closer look

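In 13 of 55 groups of 4 to 10 sums, 1 embryo's level of a gene lay further from the rest than Dixon's 95% limit, where chance gives about 1 in 20 for normally spread values. In 3 of the 13 all other sums were at 0, where any count meets the limit, so the number is not set against chance. In the 10 ICM sums these were Id2 in embryo 4 of plate P8 (328 CPM, others 0 to 9.68), Smad1 in the same embryo (19.4, others 0 to 10.2), Bmpr2 in embryo 3 of plate P8 (59.7, others 0 to 12.6) and Smad5 in embryo 1 of plate P8 (23.9, others 0 to 10.97). The Id2 and Smad1 counts of embryo 4 lay in the same cell, and all 3 of these embryos had 3 or 4 cells. In PrE-like sums Id1 was far above the rest in embryo 4 (651 CPM, others 206.2 to 238.9), and Bmp7 (1.47 CPM, 43 counts) stood out in the same embryo and Bmp2 (2.23 CPM, 10 counts) in embryo 2 against 0 in the others.
In E5.5 epiblast-like sums the same was found for Bmp4 (20.0 CPM, others 1.13 to 9.11), Bmp7 (6.59 CPM, others 0 to 1.45), Bmpr2 (10.2 CPM, others 0.213 to 4.06) and Smad1 (22.98 CPM, others 8.20 to 14.8), each in a different embryo. In E6.5 endoderm-like sums it was found for Bmp4 (16.7 CPM in embryo 5 of plate P2, 53 counts over 3 cells, others 0 to 0.203) and Bmp7 (0.945 CPM from 4 counts, others 0).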

How the results depend on the processing

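The number of the 10 genes that passed was recomputed under each alternative. The share of all genes that passed is given for the main fit alone, so a count that moved cannot be told from a general move in calls. Of the counts 92 stayed within 1.5 times and 31 did not. In the order used here, the counts were 0 from ICM to E4.5 epiblast, 0 from E4.5 to E5.5 epiblast, 2 from E5.5 to E6.5 epiblast, 1 for PrE against epiblast, 0 for endoderm against epiblast at E6.5, 1 from PrE to E6.5 endoderm and 2 from ICM to PrE. With DESeq2 they were 1 from E4.5 to E5.5 epiblast, 2 for PrE against epiblast, 2 from PrE to E6.5 endoderm and 1 from ICM to PrE, and the same 4 counts held with only the 2 groups compared, where the E5.5 to E6.5 epiblast count was 1. With sums of at least 5 cells they were 1 from ICM to epiblast, 1 from E4.5 to E5.5, 2 for PrE against epiblast, 3 from PrE to E6.5 endoderm and 5 from ICM to PrE, and with sums of at least 1 cell endoderm against epiblast had 1 (Bmp4, log2 fold change 3.47, adjusted p = 0.0207). With single wells only they were 1 from E4.5 to E5.5, 2 for PrE against epiblast, 0 from PrE to E6.5 endoderm and 4 from ICM to PrE. A test against the fold limit itself left 1 from E5.5 to E6.5 (Bmp2), 0 for PrE against epiblast, 0 from PrE to E6.5 endoderm and 1 from ICM to PrE. With the E6.5 embryos that have no plate name alone the E5.5 to E6.5 count was 1 and the PrE to E6.5 endoderm count 0, and without unnumbered E3.5 cells ICM to PrE had 1. Without cells whose markers go against their class PrE against epiblast had 2, and with the unnamed cells added endoderm against epiblast had 1 and PrE to E6.5 endoderm 2.
With the replicate block (embryo) PrE against epiblast had 2 (Id1 and Bmp4) and endoderm against epiblast 1 (Bmp2), and no other call changed. Each block was fitted to the 2 groups compared, in embryos with both, so a changed call cannot be credited to the block alone. No block could be fitted for the streak-like class, which had 1 embryo. Leaving out 1 embryo at a time gave 0 to 1 from ICM to epiblast, 0 to 0 from E4.5 to E5.5, 1 to 3 from E5.5 to E6.5, 0 to 1 for PrE against epiblast, 0 to 1 for endoderm against epiblast, 0 to 1 from PrE to E6.5 endoderm and 1 to 4 from ICM to PrE. The Bmp2 log2 fold change from ICM to PrE ran from 0, without E4.5 embryo 2 of plate P1, to 5.501. Of 1197 single values under the alternatives 85 changed sign, and of 1157 with 1 embryo left out 47 did, among them that 1 with a call. Another scaling (RLE), Ward clusters, no filter and other fold limits changed no count. Thinning moved 7 of 80 shares of cells beyond their interval.
The causes of these changes were not tested. Depth limits low levels, since 1 CPM in the smallest sum, of 1476466 counts, is 1 or 2 counts, and sums of 3 cells carry single cells into the mean.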
